A study of Mus musculus with 15 samples.

Results

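The constitutive androstane receptor (CAR) and the pregnane X receptor (PXR), encoded by Nr1i3 and Nr1i2, were followed with genes known as their targets in mouse liver: Cyp2b10, Cyp2c37, Cyp2c38, Abcc3 and Por. Each gene was read at a probe set (a group of short array probes for 1 transcript) annotated to its symbol alone, and, where several existed, at the one with the highest mean over all 15 arrays. This gave values for 6 of the 7 genes, among 18193 genes measured in all, and Por was not analysed here. The probe set of each gene was picked by that mean alone, while the genes themselves were chosen with earlier results of these data known.

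The samples were whole livers of adult male mice on 15 Affymetrix GeneChip mouse genome arrays, 1 pool of livers per array, in 5 groups of 3 pools. By their titles, control pools 1 to 3 mix livers of control males from both generations, whereas the series description names the controls of each generation separately; they were used here as 1 group, and every difference against control rests on this reading. IUGR F1 pools 4 to 6 came from males underfed by 50% in utero, and ON F1 pools 7 to 9 from males that were overfed during lactation. IUGR F2 pools 10 to 12 and ON F2 pools 13 to 15 came from the adult sons of such males; the series follows the paternal line. Each pool is labelled with the number 3, read here as 3 livers, so the spread between single mice cannot be seen. Strain, exact age and hour of death are not stated in the sources used here. The labels do not tell whether pools shared litters, and the p-values therefore rest on the spread among these 15 pools alone.

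CAR and PXR are nuclear receptors that bind DNA with a retinoid X receptor (RXR) partner and switch on genes that oxidise, conjugate and export drugs, steroids, bile acids and bilirubin. CAR is held in the cytoplasm of the hepatocyte until an activator or a kinase signal releases it, so its activity can change while its mRNA does not. Cyp2b10 is the classical CAR target of mouse liver, and food restriction, lipids and the time of day are all known to act on this gene.

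Promoter sequences of 5 of the 6 measured genes were found in a RefSeq table (GRCm38.p6), each read over the 250 bases before the annotated start, 5′ to 3′ on the gene's strand. They were searched on both strands for 8 short motifs: the E-box CACGTG, the D-box TTATGTAA and its variant TTACGTAA (sites of the clock output factors DBP, TEF and HLF), the C/EBP-type site TTGCATAA, the nuclear receptor sites AGGTCA and AGTTCA, the DR4 repeat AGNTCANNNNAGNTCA (which can hold those sites within it) and the TATA box TATAAA. The windows of CAR itself, of the target with the largest range and of Cyp2c38 each held 1 match, shown in capitals, and are printed here because these genes behaved differently across the pools. The Nr1i3 window lies at chr1:171213720-171213969 (plus strand), with an E-box 244 to 239 bases before the start.

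Nr1i3: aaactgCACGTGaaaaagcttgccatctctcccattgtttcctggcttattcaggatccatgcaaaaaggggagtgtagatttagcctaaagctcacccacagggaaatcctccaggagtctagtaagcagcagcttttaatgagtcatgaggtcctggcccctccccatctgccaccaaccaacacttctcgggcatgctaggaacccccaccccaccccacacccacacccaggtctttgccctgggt

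The Cyp2b10 window lies at chr7:25897408-25897657 (plus strand), with a C/EBP-type site 58 to 51 bases before the start.

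Cyp2b10: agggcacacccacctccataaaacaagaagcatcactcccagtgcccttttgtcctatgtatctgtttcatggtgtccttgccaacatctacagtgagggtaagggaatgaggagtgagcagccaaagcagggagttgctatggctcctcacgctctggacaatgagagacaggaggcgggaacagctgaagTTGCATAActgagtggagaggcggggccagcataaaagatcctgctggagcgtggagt

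The Cyp2c38 window lies at chr19:39463076-39463325 (minus strand), with a TATA box 31 to 26 bases before the start.

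Cyp2c38: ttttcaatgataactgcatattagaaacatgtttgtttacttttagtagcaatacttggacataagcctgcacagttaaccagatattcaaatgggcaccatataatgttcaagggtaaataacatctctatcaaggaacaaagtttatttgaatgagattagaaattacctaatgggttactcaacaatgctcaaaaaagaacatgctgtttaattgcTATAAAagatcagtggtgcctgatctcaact

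Among 32851 promoter windows of this length in the same table, 6.02% held CACGTG, 0.694% TTGCATAA and 12.4% TATAAA. The shares were 0.819% for TTATGTAA, 0.113% for TTACGTAA, 14% for AGGTCA, 11.8% for AGTTCA and 0.103% for the DR4 repeat. The Nr1i2 window (chr16:38294825-38295074, minus strand) and the Cyp2c37 window (chr19:39992174-39992423, plus strand) held none of these letters. A match is a description of letters in this window, and the windows do not reach the distal enhancers through which CAR and PXR are known to act.

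Over the 15 pools the receptors varied less than the targets, though more than most genes. Nr1i3 spanned 0.64 and Nr1i2 0.73 on the log2 scale, where 1 unit is a doubling. Cyp2b10 spanned 3.46, Cyp2c38 1.93, Abcc3 1.60 and Cyp2c37 1.30. The SD of Cyp2b10 over the pools exceeded that of 99.8% of all genes, against 99.4% for Cyp2c38, 98.0% for Abcc3, 96.2% for Cyp2c37, 86.7% for Nr1i2 and 84.4% for Nr1i3. In the test for any difference among the 5 groups (limma's moderated F test, Benjamini-Hochberg adjustment over 18193 genes), none of the 6 genes passed an adjusted p of 0.05, as 34 genes (0.187%) did. The adjusted p was 0.0878 for Cyp2c38, 0.120 for Cyp2b10, 0.139 for Abcc3, 0.264 for Nr1i2, 0.354 for Cyp2c37 and 0.986 for Nr1i3.

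**Figure D1:**
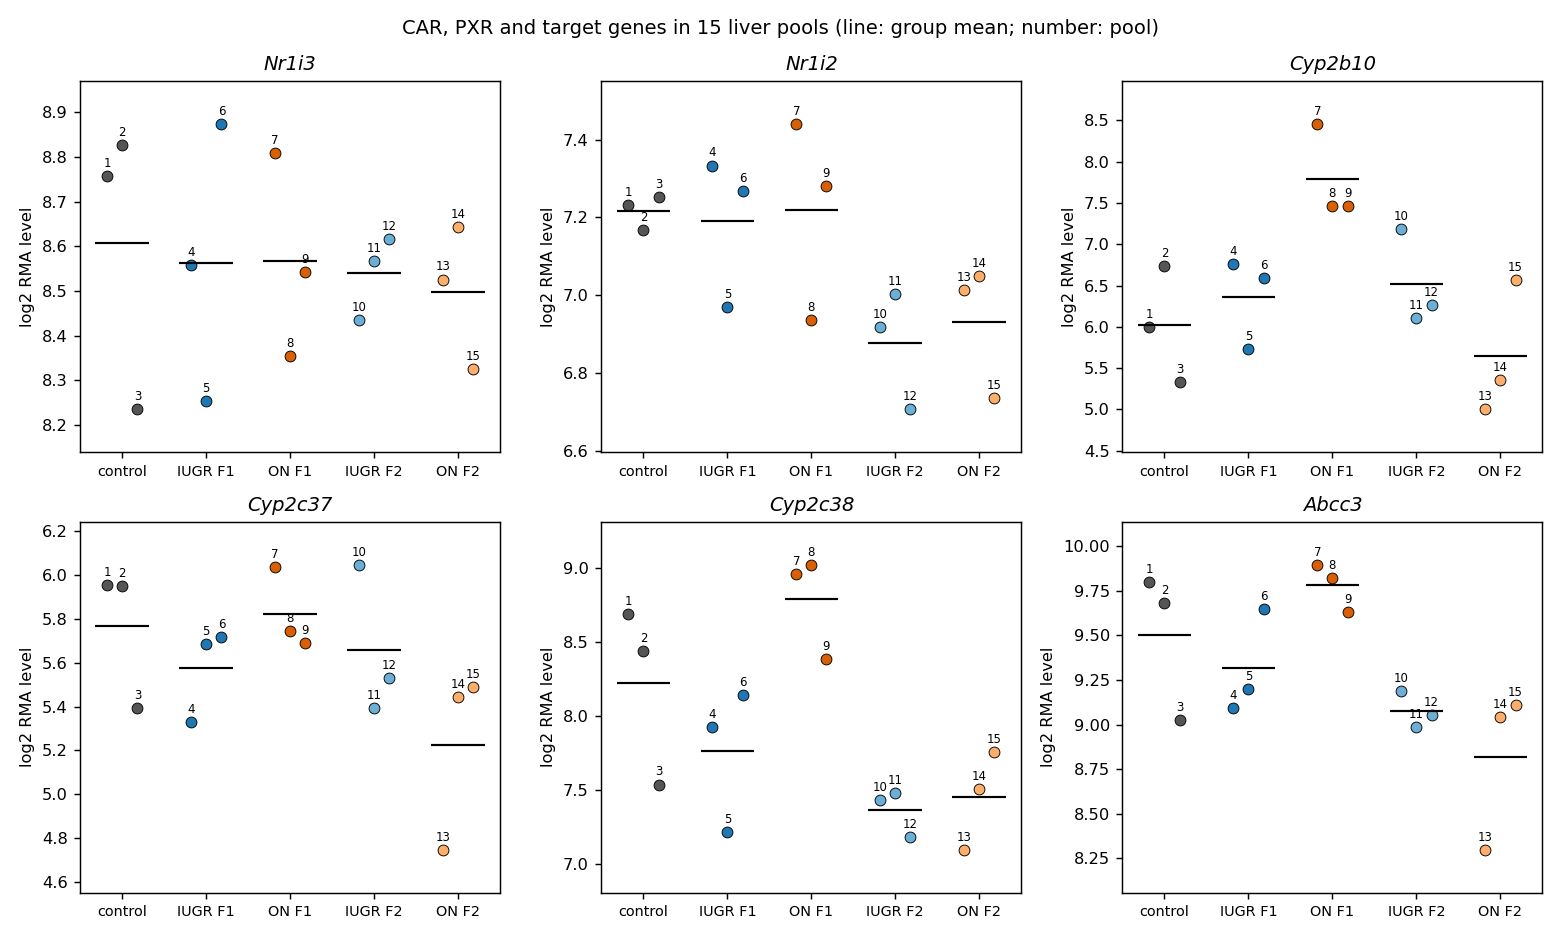
Deposited log2 level (RMA) of each gene in every pool, 1 point per pool with its pool number, by group, with a line at the group mean; each panel has its own axis. The ON F1 pools sit above all other pools for Cyp2b10, and the ranges of all groups overlap for Nr1i3.

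Nr1i3, the CAR gene, had levels of 8.76, 8.83 and 8.23 in the control pools, 8.56, 8.25 and 8.87 in the IUGR F1 pools, 8.81, 8.35 and 8.54 in the ON F1 pools, 8.44, 8.57 and 8.62 in the IUGR F2 pools and 8.53, 8.64 and 8.33 in the ON F2 pools. All groups overlapped, and the spread was smallest in IUGR F2 (SD 0.09). The means ran from 8.61 ± 0.32 (SD, n = 3) in control to 8.50 ± 0.16 in ON F2, and no neighbours in that order were apart. The widest difference against control was -0.11 ± 0.17 (SE) in ON F2, with a 95% interval from -0.47 to 0.26 and an adjusted p of 0.806. 

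Nr1i2, the PXR gene, had levels of 7.23, 7.17 and 7.25 in control, 7.33, 6.97 and 7.27 in the IUGR F1 pools, 7.44, 6.94 and 7.28 in the ON F1 pools, 6.92, 7.00 and 6.71 in the IUGR F2 pools and 7.01, 7.05 and 6.73 in the ON F2 pools. Every second-generation pool of both lineages lay below every control pool, while the first-generation groups overlapped control. The difference against control was -0.34 ± 0.13 in IUGR F2 (adjusted p = 0.683) and -0.29 ± 0.13 in ON F2 (adjusted p = 0.328), and neither passed the test. Both differences use the same control pools. The order of the means was ON F1 (7.22 ± 0.26), control (7.22 ± 0.04), IUGR F1 (7.19 ± 0.19), ON F2 (6.93 ± 0.17) and IUGR F2 (6.88 ± 0.15), and all neighbours overlapped. The other Nr1i2 probe set averaged 6.49 ± 0.15 in control, 6.13 ± 0.34 in IUGR F2 and 6.26 ± 0.17 in ON F2. There the separation was lost: the control pools began at 6.33, and the pools of IUGR F2 reached 6.39 and those of ON F2 6.38.

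Cyp2b10, a P450 that hydroxylates drugs and steroids, had levels of 6.00, 6.74 and 5.33 in control, 6.76, 5.73 and 6.59 in the IUGR F1 pools, 8.46, 7.46 and 7.46 in the ON F1 pools, 7.19, 6.11 and 6.26 in the IUGR F2 pools and 5.00, 5.36 and 6.57 in the ON F2 pools. All 3 ON F1 pools were above every pool of the other groups, pool 7 by the widest margin. The means were 7.79 ± 0.58 in ON F1, 6.52 ± 0.58 in IUGR F2, 6.36 ± 0.55 in IUGR F1, 6.02 ± 0.71 in control and 5.64 ± 0.82 in ON F2. Only the first step of that order, 1.27 from ON F1 to IUGR F2, separated neighbouring groups; the other 4 groups overlapped their neighbours.

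Cyp2b10 has 2 further probe sets, both of a type (_s_at) whose probes can match more than 1 transcript, so signal from near copies such as Cyp2b9 and Cyp2b13 cannot be told apart from its own there. The brighter of them averaged 5.82 ± 0.62 in control, 7.76 ± 0.78 in ON F1 and 4.88 ± 1.53 in ON F2. The dimmer averaged 5.31 ± 0.76, 7.42 ± 0.72 and 4.48 ± 1.34 in the same groups. All 3 probe sets placed ON F1 highest and ON F2 lowest of the 5 groups, and pool 15 was the highest ON F2 pool on each.

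**Figure D2:**
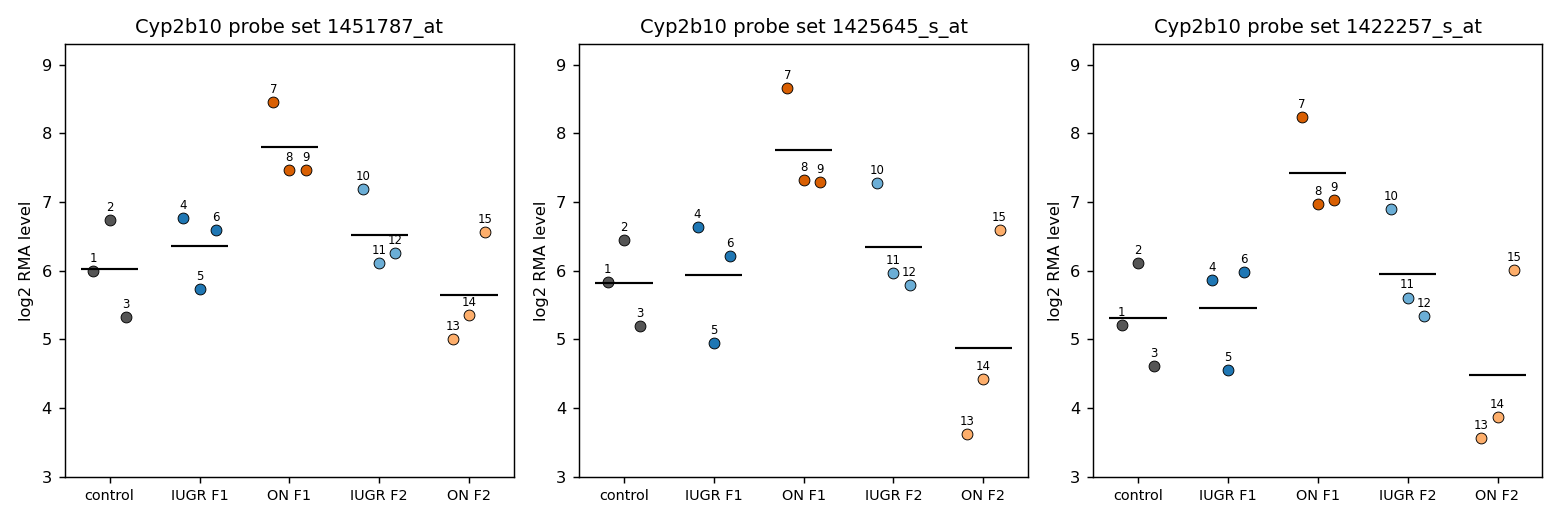
Log2 level of the 3 Cyp2b10 probe sets in every pool, by group on a shared vertical scale, with pool numbers and a line at the group mean. The ON F1 pools stand highest on each. Pools 13 and 14 reach lower values on the _s_at probe sets than on the probe set used for the gene (for pool 13, 3.62 and 3.56 against 5.00).

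Cyp2c38, a P450 that oxidises arachidonic acid, had levels of 8.69, 8.44 and 7.54 in control, 7.93, 7.22 and 8.14 in the IUGR F1 pools, 8.96, 9.02 and 8.38 in the ON F1 pools, 7.43, 7.48 and 7.18 in the IUGR F2 pools and 7.10, 7.51 and 7.76 in the ON F2 pools. The ON F1 pools were above every pool of the IUGR F1, IUGR F2 and ON F2 groups and overlapped control, and the IUGR F2 pools lay below all control pools. The means came in the order ON F1 (8.79 ± 0.35), control (8.22 ± 0.61), IUGR F1 (7.76 ± 0.48), ON F2 (7.45 ± 0.33) and IUGR F2 (7.37 ± 0.16), each overlapping the next.

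Cyp2c37, another arachidonic acid P450 of the same chromosome 19 cluster, had levels of 5.96, 5.95 and 5.39 in control, 5.33, 5.68 and 5.72 in the IUGR F1 pools, 6.04, 5.74 and 5.69 in the ON F1 pools, 6.05, 5.39 and 5.53 in the IUGR F2 pools and 4.75, 5.45 and 5.49 in the ON F2 pools. The ON F2 pools lay below the ON F1 pools, with pool 13 far below the rest. The means were 5.82 ± 0.19 in ON F1, 5.77 ± 0.32 in control, 5.66 ± 0.35 in IUGR F2, 5.58 ± 0.22 in IUGR F1 and 5.23 ± 0.42 in ON F2, with overlap between neighbours. The paralogs of this cluster are close in sequence, and whether the Cyp2c37 and Cyp2c38 probes separate them was not tested.

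Abcc3, which encodes the basolateral pump MRP3 that returns bile acids and glucuronides to blood, had levels of 9.80, 9.68 and 9.02 in control, 9.10, 9.20 and 9.65 in the IUGR F1 pools, 9.90, 9.82 and 9.63 in the ON F1 pools, 9.19, 8.98 and 9.05 in the IUGR F2 pools and 8.30, 9.04 and 9.11 in the ON F2 pools. The ON F1 pools were above all pools of both second-generation groups, and pool 13 was the lowest of the 15. The means were 9.78 ± 0.14 in ON F1, 9.50 ± 0.42 in control, 9.31 ± 0.29 in IUGR F1, 9.07 ± 0.11 for the IUGR F2 and 8.82 ± 0.45 for the ON F2 pools, with overlap between neighbours.

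Some pools were low or high across several of these genes. Control pool 3 was the lowest of its group for 5 of the 6 genes, Nr1i2 being the exception, and ON F1 pool 7 the highest of its group for all but Cyp2c38. Pool 13 was the lowest ON F2 pool and pool 15 the highest for the 4 targets, while pool 15 was the lowest of the group for both receptors. These are whole-liver RNA values, in which fewer cells of a type and less RNA per cell cannot be told apart.

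The comparison of the ON lineage between generations asked whether sons of overfed males carry the expression of their fathers' group. The labels give no date or array batch, so cohort and collection day cannot be told apart from generation in either lineage. Between the ON groups 3 of the targets fell. Cyp2b10 was 4.44-fold lower in ON F2 than in ON F1 (log2 difference -2.15 ± 0.45, 95% interval -3.10 to -1.20, adjusted p = 0.0345). Cyp2c38 was 2.52-fold lower (-1.33 ± 0.29, interval -1.94 to -0.73, adjusted p = 0.0365), and Abcc3 1.96-fold lower (-0.97 ± 0.22, interval -1.44 to -0.50, adjusted p = 0.0447). Differences of -0.60 ± 0.22 for Cyp2c37 (adjusted p = 0.155), -0.29 ± 0.13 for Nr1i2 (0.253) and -0.07 ± 0.17 for Nr1i3 (0.860) did not pass. Among all 18193 genes 261 (1.43%) passed in either direction, 173 of them (0.951%) lower in ON F2. The ON F2 pools lay wholly below the ON F1 pools for Cyp2b10, Cyp2c37, Cyp2c38 and Abcc3, as for 14% of all genes. At an unadjusted p under 0.05 all but Nr1i3 passed, 5 of 6 against 19.3% of genes. The median difference of the 6 genes was -0.78, beside -0.03 over all genes.

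These 3 calls depended on which pools and settings were used. Over 15 other settings all 3 genes passed in 3, 1 or 2 of them in another 3, and none in 9. Without pool 7 the differences were -1.82, -1.25 and -0.91 for Cyp2b10, Cyp2c38 and Abcc3 (adjusted p = 0.116, 0.116 and 0.126), and 19 genes in all passed. Without pool 8 the adjusted p was 0.0501, 0.0827 and 0.0827, with 152 genes passing. Without pool 13 the differences were -1.83, -1.16 and -0.71 (adjusted p = 0.0932, 0.0975 and 0.110), with 34 genes passing, and without pool 14 the adjusted p was 0.132, 0.120 and 0.104, with 26 genes passing. Without pool 9 Abcc3 alone missed the threshold (adjusted p = 0.0511), and without pool 15 all 3 passed. The sign was negative for these 3 genes in each of these settings. On the other Cyp2b10 probe sets the difference was -2.93 on the dimmer (adjusted p = 0.04997 over 45037 probe sets) and -2.88 on the brighter (0.0629).

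Other measurements moved along with this comparison. Pool 13 carried transcripts of exocrine pancreas: the 9 measured of 14 acinar markers summed to 6762 on the linear scale there and to between 1305 and 1818 in the other 14 pools. Pool 8 had high levels of interferon response genes, with a mean of 8.28 over 8 measured of 10 against 5.73 to 6.79 elsewhere. The means of ON F1 pools 7 and 9 (6.42 and 6.20) also lay above those of ON F2 (5.95 to 6.06). All 8 genes averaged lower in ON F2 than in ON F1 (median difference -0.96), and none passed. Pool 5 carried skeletal muscle transcripts, with a mean of 4.96 over 11 markers against 4.10 to 4.36 elsewhere. Without pools 5, 8 and 13 together the differences were -2.00 for Cyp2b10, -1.04 for Cyp2c38 and -0.69 for Abcc3, with adjusted p of 0.0944, 0.121 and 0.159, and 48 genes passed. The 9 measured of 10 bile duct markers, expressed at a low level, summed to 379 to 447 in ON F1 and 266 to 313 in ON F2. Of these 9, 7 were lower and 2 higher in ON F2, and 1 passed. The 12 Kupffer cell markers summed to 1693 to 1952 in ON F1 and 2043 to 2789 in ON F2, with 11 higher and 1 lower in ON F2, and none passed. The 11 measured of 14 periportal markers summed to 40885 to 43741 in ON F1 and 45451 to 48576 in ON F2. Of these 11, which include the gene Pck1, 7 were higher and 4 lower in ON F2, with a median difference of 0.03, and 1 passed. The 13 measured of 14 pericentral markers summed to 32456 to 36272 in ON F1 and 35919 to 37563 in ON F2. Pool 7 had the lowest pericentral sum of the 15 pools. Of these 13, 7 were higher and 6 lower in ON F2, with a median difference of 0.19, and none passed. RMA levels stay above 0 for absent transcripts too, so a low level here does not show that a cell type was present. Hepatocyte markers, 9 measured of 10, had pool means from 13.35 to 13.47 over the 15 pools. Among them Alb ran from 14.41 to 14.49 and Apoa1 from 14.15 to 14.25. Quantile normalisation can hold such bright probe sets nearly level, so these narrow ranges cannot show whether hepatocyte content differed. The part of these markers in the result was not tested beyond the settings given.

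**Figure D3:**
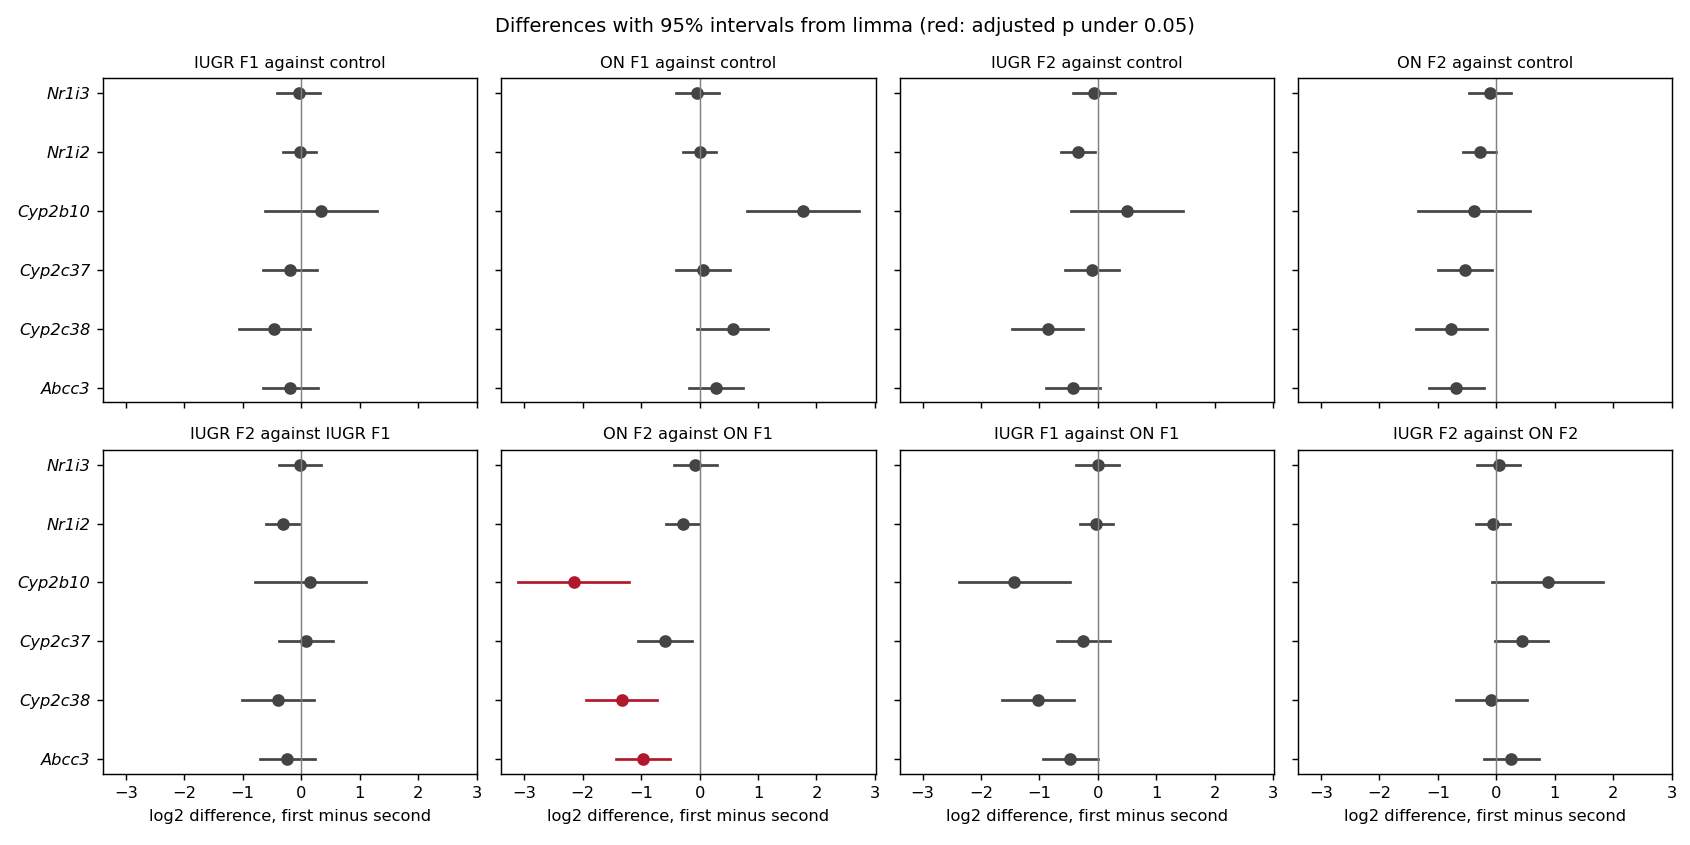
Log2 difference of each gene in the 8 comparisons, first group minus second, as a point with its 95% interval from limma. Only Cyp2b10, Cyp2c38 and Abcc3 in ON F2 against ON F1 have an adjusted p under 0.05 (red), at -2.15, -1.33 and -0.97.

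Overfeeding in lactation against control asked what remained in the adult liver of males overfed as pups. Cyp2b10 was 3.41-fold higher in ON F1 (95% interval 1.76 to 6.60), a log2 difference of 1.77 ± 0.45 with an unadjusted p of 0.00127, rank 159 among all genes, but an adjusted p of 0.143. It was the 1 gene of the 6 whose ON F1 pools all lay above the control pools, as 10.2% of genes did, and the 1 gene with an unadjusted p under 0.05, as in 14% of genes. Cyp2c38 differed by 0.57 ± 0.29 (adjusted p = 0.392), Abcc3 by 0.28 ± 0.22 (0.597), Cyp2c37 by 0.06 ± 0.22, Nr1i2 by 0.00 ± 0.13 and Nr1i3 by -0.04 ± 0.17. None of the 6 passed, beside 4 genes (0.0220%) in the whole table, and Cyp2b10 passed in none of the alternatives run. On the other 2 probe sets Cyp2b10 was higher by 1.93 and 2.10 (adjusted p = 0.251 and 0.198).

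In the sons, the ON F2 group against control gave negative differences for all 6 genes, with a median of -0.46 beside 0.00 over all genes, and none passed. Abcc3 differed by -0.69 ± 0.22 (adjusted p = 0.186), Cyp2c38 by -0.77 ± 0.29 (0.233), Cyp2c37 by -0.54 ± 0.22 (0.261) and Cyp2b10 by -0.38 ± 0.45 (0.723). By limma 0 of 18193 genes (0%) passed after adjustment and 2755 (15.1%) had an unadjusted p under 0.05, among them Nr1i2, Cyp2c37, Cyp2c38 and Abcc3. Nr1i2 was the 1 gene of the 6 whose pools all lay below control, as 12.1% of genes did. ON F1 and ON F2 were set against the same control pools, so the fall between generations is the difference between these 2 rows of values: for Cyp2b10 1.77 and -0.38, for Cyp2c38 0.57 and -0.77, for Abcc3 0.28 and -0.69.

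Prenatal underfeeding against control moved none of the 6 genes past the test. The IUGR F1 differences were 0.34 ± 0.45 for Cyp2b10, -0.46 ± 0.29 for Cyp2c38, -0.19 ± 0.22 for both Cyp2c37 and Abcc3, -0.04 ± 0.17 for Nr1i3 and -0.03 ± 0.13 for Nr1i2. By limma 0 genes (0%) passed after adjustment in the whole table, and 1534 (8.43%) had an unadjusted p under 0.05, none of the 6 among them. The interval for Cyp2b10 ran from -0.61 to 1.29.

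In the sons of underfed males every pool had a Cyp2c38 level below every control pool, and the difference of -0.86 ± 0.29 did not pass (interval -1.47 to -0.25, adjusted p = 0.647). Cyp2c38 and Nr1i2 were the 2 genes whose IUGR F2 pools all lay below control, as 8.12% of genes did, and the 2 with an unadjusted p under 0.05, as in 1283 genes (7.05%). Abcc3 differed by -0.43 ± 0.22 (adjusted p = 0.731), Cyp2c37 by -0.11 ± 0.22, Nr1i3 by -0.07 ± 0.17 and Cyp2b10 by 0.50 ± 0.45 (0.871). By limma 0 of 18193 genes (0%) passed after adjustment. Between the IUGR generations Nr1i2 differed by -0.31 ± 0.13 (adjusted p = 0.401), Cyp2c38 by -0.40 ± 0.29, Abcc3 by -0.24 ± 0.22, Cyp2b10 by 0.16 ± 0.45, Cyp2c37 by 0.08 ± 0.22 and Nr1i3 by -0.02 ± 0.17. None passed, beside 2 genes in all (0.0110%), and Nr1i2 alone had an unadjusted p under 0.05, as in 11.4% of genes.

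The lineages were also set against each other. In the first generation all 6 differences of IUGR F1 minus ON F1 were negative (median -0.36, beside -0.01 over all genes). Cyp2b10 differed by -1.43 ± 0.45 (adjusted p = 0.668), Cyp2c38 by -1.03 ± 0.29 (0.588), Abcc3 by -0.47 ± 0.22 (0.784), Cyp2c37 by -0.25 ± 0.22, Nr1i2 by -0.03 ± 0.13 and Nr1i3 by -0.01 ± 0.17. None passed, beside 2 genes in all (0.0110%). Cyp2b10, Cyp2c38 and Abcc3 had an unadjusted p under 0.05, as in 6.35% of genes, and Cyp2b10 and Cyp2c38 pools did not overlap, as in 5.85%. In the second generation IUGR F2 minus ON F2 was 0.88 ± 0.45 for Cyp2b10 (adjusted p = 0.540), 0.43 ± 0.22 for Cyp2c37, 0.26 ± 0.22 for Abcc3, 0.04 ± 0.17 for Nr1i3, -0.06 ± 0.13 for Nr1i2 and -0.09 ± 0.29 for Cyp2c38. None passed, beside 1 gene in all (0.00550%), and none had an unadjusted p under 0.05, as in 10.1% of genes.

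Beyond these 6, 85 other genes of CAR and PXR biology were measured: receptor partners and regulators, oxidising enzymes, conjugating enzymes, transporters and further targets. Of these, 7 passed in ON F2 against ON F1, 4 higher and 3 lower, beside 1.43% of all genes in either direction, 0.484% higher and 0.951% lower. The median over all 85 was -0.02, beside -0.03 over all genes. In each of the other 7 comparisons 0 of the 85 passed, where 0 to 4 genes passed in the whole table.

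Among 21 measured oxidising enzymes, 1 fell between the ON generations and 0 rose. Cyp2b9, the Cyp2b10 neighbour that is more abundant in female than in male mouse liver, had levels of 8.16, 8.34 and 6.66 in ON F1 and 5.12, 4.18 and 4.74 in ON F2. The groups did not overlap, and the difference was -3.04 ± 0.49 (adjusted p = 0.0167). Cyp2c39 missed the threshold with -1.06 ± 0.25 (adjusted p = 0.0511), as did Cyp2b13 with -0.73 ± 0.26 (0.154), Cyp2c54 with -0.75 ± 0.27 (0.152) and Cyp2c55 with -0.61 ± 0.22 (0.154). Cyp3a11, the main PXR target P450 of mouse liver, differed by -0.29 ± 0.11 (0.153), and Cyp2c29 by -0.02 ± 0.09. In the other direction, Cyp1a2 differed by 0.39 ± 0.14 (adjusted p = 0.151), Cyp3a13 by 0.54 ± 0.32 (0.373) and Alas1 by 0.58 ± 0.57 (0.619). The list held 6 positive and 15 negative differences, with a median of -0.23. Cyp2b9 averaged 5.58 in control, 5.38 in IUGR F1 and 4.16 in IUGR F2, and its adjusted p in the F test was 0.0392.

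Of 22 measured conjugating enzymes, 2 rose and 1 fell in ON F2. The sulfotransferase gene Sult5a1 had levels of 6.64, 7.47 and 6.90 in ON F1 and 8.40, 8.55 and 7.92 in ON F2 (1.29 ± 0.23, adjusted p = 0.0211). The glucuronosyltransferase gene Ugt2b35 rose by 0.61 ± 0.13 (adjusted p = 0.0361). The glutathione transferase gene Gstm2 had levels of 9.51, 9.76 and 9.19 in ON F1 and 8.53, 8.53 and 8.42 in ON F2, without overlap (-0.99 ± 0.19, adjusted p = 0.0284). The list median was -0.05, with 11 differences of each sign.

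Of 11 transporters, Abcb11, the bile salt export pump of the canalicular membrane, rose by 0.57 ± 0.13 (adjusted p = 0.0497), opposite in sign to Abcc3, and the list median was -0.09. Of 13 further targets, Pck1 rose by 1.64 ± 0.38 (adjusted p = 0.0470). Pck1 encodes the gluconeogenic enzyme PEPCK and is known to be repressed by active CAR. G6pc, of the same list, went the other way and did not pass (-0.44 ± 0.16, adjusted p = 0.160). This list held 8 positive and 5 negative differences, with a median of 0.22. Of 18 partners and regulators, Rxrg, which encodes a receptor of the RXR type that pairs with CAR and PXR, fell by 0.46 on the log2 scale (SE 0.10, adjusted p = 0.0407), while Rxra differed by 0.30 ± 0.11 (0.145). The list median was 0.07. Like the members' calls, these depended on the setting: over 15 other settings Cyp2b9 passed in 11, Sult5a1 in 10, Ugt2b35 in 8, Gstm2 in 7, Abcb11 in 6, Rxrg in 5 and Pck1 in 4.

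**Figure D4:**
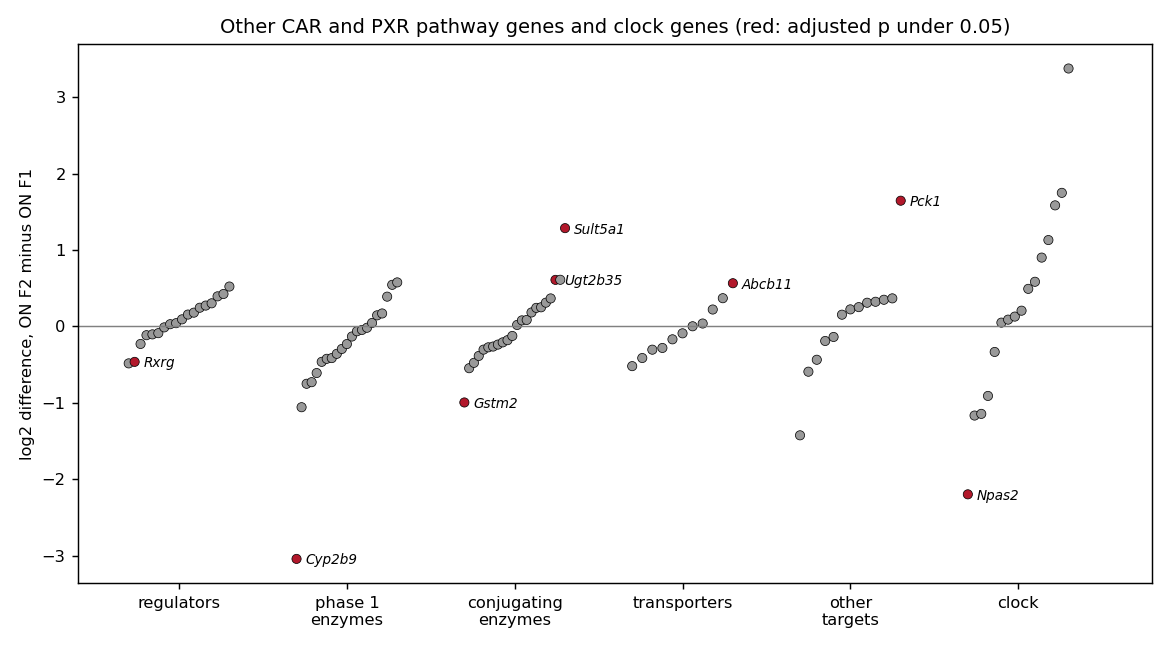
Log2 difference of ON F2 minus ON F1 for the other CAR and PXR pathway genes and for clock genes, 1 point per gene, ordered within each list; red points have an adjusted p under 0.05 and are named. Cyp2b9 is the lowest at -3.04, and the points of each list lie on both sides of 0.

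Of 16 clock genes measured, 1 passed in the same comparison. DBP, TEF and HLF are clock output factors known to drive daily rhythms of Nr1i3 and of drug-metabolising enzymes in mouse liver. Dbp had levels of 5.40, 5.34 and 6.23 in ON F1 and 9.84, 10.71 and 6.54 in ON F2, without overlap but with pool 15 close to ON F1 (3.37 ± 1.26, adjusted p = 0.163). In control the Dbp levels were 5.88, 10.07 and 6.89, in IUGR F1 5.30, 9.77 and 9.08, and in IUGR F2 5.46, 6.18 and 7.97. Tef differed by 1.13 ± 0.36 between the ON generations (adjusted p = 0.110) and Hlf by 0.13 ± 0.13 (0.624). Npas2, which encodes a partner of BMAL1, was the clock gene that fell, by 2.19 on the log2 scale (SE 0.45, adjusted p = 0.0338). It passed in 6 of 15 other settings, in which the difference ran from -2.62 to -1.23, the smallest with Dbp as covariate, where it did not pass. With the Dbp level as a covariate the ON F2 minus ON F1 difference was -1.75 for Cyp2b10, -1.10 for Cyp2c38 and -0.97 for Abcc3, with adjusted p of 0.290, 0.301 and 0.272, and 3 genes passed in all. Since Dbp did not overlap between the 2 ON groups, this fit separates Dbp poorly from generation. The Abcc3 difference was also -0.97 without the covariate, where limma gave an adjusted p of 0.0447. The part of the time of day in these differences was not tested beyond this covariate.

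**Figure D5:**
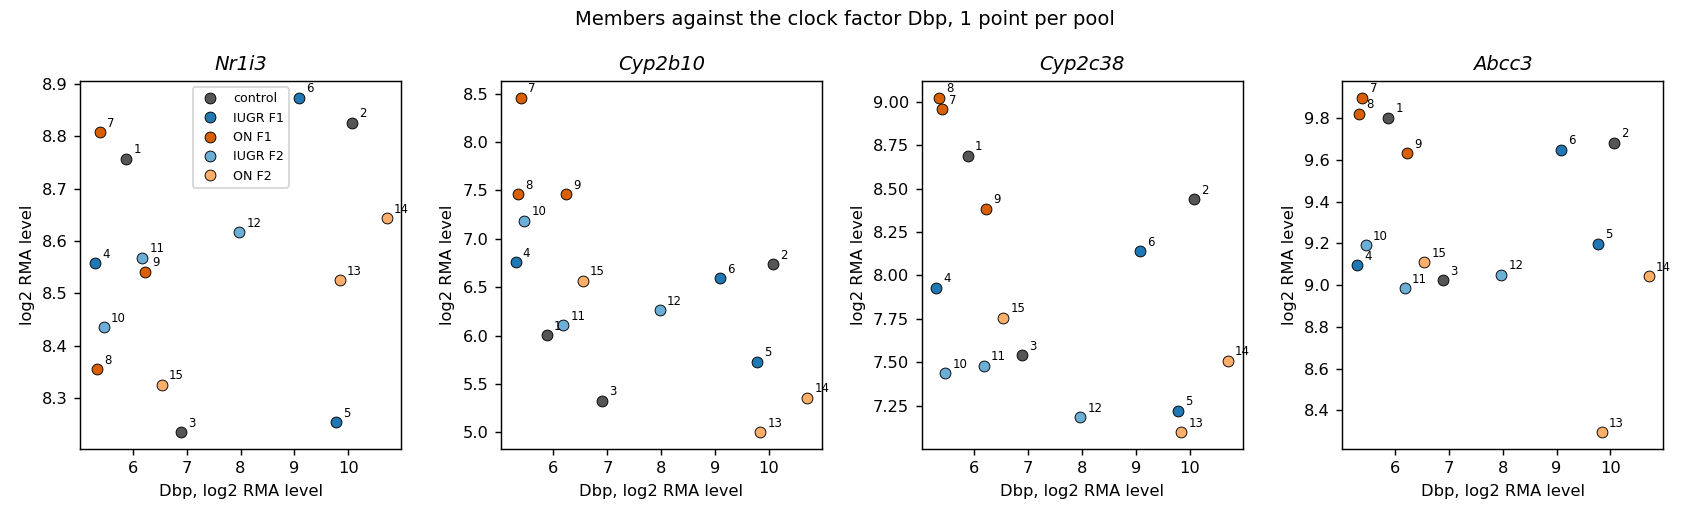
Log2 level of Nr1i3, Cyp2b10, Cyp2c38 and Abcc3 (vertical axes) against the log2 level of the clock output gene Dbp (horizontal axis), 1 numbered point per pool, coloured by group. The 3 ON F1 pools lie between 5.34 and 6.23 on the Dbp axis, and ON F2 pools 13 and 14 at 9.84 and 10.71.

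RNA length was a further measure taken in each pool. The mean log2 ratio of 3′ to 5′ control probe sets of actin and Gapdh, which rises as RNA breaks, was highest in ON F1 (1.69), followed by IUGR F2 (1.65) and ON F2 (1.60), with 1.51 in both control and IUGR F1. The pools overlapped, from 1.53 to 1.83 in ON F1, 1.54 to 1.63 in ON F2 and 1.42 to 1.61 in control, with IUGR F2 reaching 1.87, and no test of this ratio was run. With this ratio as a covariate the ON F2 minus ON F1 difference was -2.23 for Cyp2b10 (adjusted p = 0.0388), -1.32 for Cyp2c38 (0.0473) and -0.92 for Abcc3 (0.0597).

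Across the 15 pools r between targets ran from 0.60 to 0.89, and between a target and a receptor from 0.21 to 0.53. As a description over pools that share their groups, Pearson's r was 0.89 between Cyp2c38 and Abcc3, 0.85 between Cyp2c37 and Abcc3, 0.72 between Cyp2b10 and Abcc3 and 0.70 between Cyp2b10 and Cyp2c38. Nr1i3 gave 0.27 with Cyp2b10, 0.41 with Cyp2c38 and 0.41 with Abcc3, and Nr1i2 gave 0.28, 0.53 and 0.43 in the same order. With the group means removed, r was 0.38, 0.59 and 0.50 for Nr1i3 and 0.11, 0.08 and -0.13 for Nr1i2, so that Nr1i3 with Cyp2c38 then exceeded Cyp2c37 with Cyp2c38 (0.54). Among 7814 genes with a mean level of at least 6, the 3 most like Cyp2b10 were Nat8 (0.89), Klhl13 (0.88) and Id3 (0.87), and Abcc3 ranked 201. For Cyp2c38 they were Nfe2l2, which encodes the antioxidant regulator NRF2 (0.96), the fatty aldehyde dehydrogenase gene Aldh3a2 (0.94) and the peroxisomal gene Pex11a (0.91), with Abcc3 at rank 10. For Abcc3 they were Notch2 (0.90), Fabp2 (0.90) and Gsta4 (0.89), with Cyp2c38 at rank 7. Cyp2c37 was most like its paralog Cyp2c54 (0.94), then Pink1 (0.85) and Abcc3 (0.85). For Nr1i3 the nearest were Rnf186 (0.82), Ppara (0.80) and Mnt (0.79), and for Nr1i2 Pycrl (0.86), Tmem37 (0.85) and Wbp1 (0.84).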

How the data were processed

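RNA from 15 pools of mouse liver was hybridised to 1 Affymetrix array each, per the labels. The authors deposited log2 levels for each probe set, computed with RMA (background correction, quantile normalisation, probe summary) per the submitters' processing notes. Its version is not given in those notes. That the scale is log2 follows from the range of the values. Quantile normalisation hides changes common to most genes, and RMA compresses dim probe sets. Array medians lay between 4.60 and 4.68, and the number of arrays limits the precision (median SE of a difference 0.104).

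Of 45101 probe sets 64 controls were dropped. Of the others 34945 carried 1 gene symbol, 932 several and 9160 none, and only the first kind named genes; 34741 matched the GRCm38.p6 RefSeq gene table by Entrez identifier. Groups came from the sample titles. Testing used limma 3.58.1 in R 4.3.3, with a linear model of the 5 groups fitted to all 15 arrays, eBayes with no trend, two-sided p-values and Benjamini-Hochberg adjustment over 18193 genes in each of 8 comparisons (threshold 0.05). The procedure was also run on simulated data with independent normal noise for each gene. Those data hold no odd pools and no correlation between genes, so that run does not bear on the dependence on single pools. "Rose" and "fell" are used of differences that passed.

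Genes named were the members, listed pathway genes that passed in a comparison, the clock factors Dbp, Tef and Hlf, and the 3 genes most correlated with each member over genes with a mean of at least 6; other paralogs and pathway genes were named after their values were seen. The members and lists were chosen with earlier results of these data known, and the interferon list was added after seeing the data. Alternatives were other probe sets, a filter on dim genes, other moderation, array weights, array centring, fits of 2 groups, Dbp or the RNA length ratio as covariate, and pools left out; leaving out pools 5, 8 and 13 together was chosen after seeing the data.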

Additional observations from a re-analysis of the deposited data

Results flagged for a closer look

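The effects of the 2 ON generations against the shared control pools differed for 3 targets by the test of the difference itself (ON F2 against ON F1, limma). The difference was -2.15 for Cyp2b10 (adjusted p = 0.0345), -1.33 for Cyp2c38 (0.0365) and -0.97 for Abcc3 (0.0447), each with all 3 ON F2 pools below all 3 ON F1 pools.

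For Cyp2c38 each ON F1 pool was above the control mean of 8.22 and each IUGR F1 pool below it. Both groups overlapped the control pools, and neither difference from control passed limma's test over all genes (0.57 with an adjusted p of 0.392 in ON F1, -0.46 with 0.686 in IUGR F1). The pattern depends on control pool 3 (7.54), since ON F1 pool 9 (8.38) lay below the other control pools (8.69 and 8.44). The difference of IUGR F1 minus ON F1 was -1.03 and did not pass either (adjusted p = 0.588).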

How the results depend on the processing

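Of 744 alternatives to the 48 member differences, 683 kept the reported sign, and the 61 sign changes all fell on differences that had not passed the test. No paired analysis was possible because the pool numbers 1 to 15 are not shared between groups. The cause of a change under a setting was not tested.

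In ON F2 against ON F1, Cyp2b10, Cyp2c38 and Abcc3 no longer passed at unchanged differences of -2.15, -1.33 and -0.97 with trend and robust moderation or with only those 2 groups fitted. They also missed the threshold with array weights (-2.04, -1.23, -0.88), with Dbp as covariate (-1.75, -1.10, -0.97) and without pools 5, 8 and 13 (-2.00, -1.04, -0.69). Abcc3 alone missed it with arrays centred on their medians (-0.93) or the 3′ to 5′ ratio as covariate (-0.92), and Cyp2b10 on its brighter _s_at probe set (-2.88). Leaving out 1 pool gave -2.61 to -1.82 for Cyp2b10, -1.54 to -1.16 for Cyp2c38 and -1.12 to -0.71 for Abcc3. The count of genes passing here (261) became 101 with array weights, 48 without pools 5, 8 and 13, 7 with 2 groups, 3 with Dbp, and 19 to 313 when 1 pool was left out.

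Other counts were small throughout. ON F1 against control (4 as reported) gave 1 with probe sets averaged, with dim genes dropped or with Dbp, 9 with trend and robust moderation, 2 with array weights, 11 without pools 5, 8 and 13, 0 with 2 groups or the 3′ to 5′ ratio, and from 0 (without control pool 3) to 21 (without pool 9) when 1 pool was left out. IUGR F2 against IUGR F1 (2) gave 5 with dim genes dropped, 15 with array weights, 1 with 2 groups, and 0 without pools 5, 8 and 13 or any 1 pool. IUGR F1 against ON F1 (2) gave 0 with 2 groups or the ratio, 1 with Dbp and 0 to 3 without 1 pool. IUGR F2 against ON F2 (1) gave 6 with dim genes dropped, 2 with trend and robust moderation, 11 with array weights, 4 with centring or Dbp, 0 with probe sets averaged, 2 groups or without pools 5, 8 and 13, and 0 to 7 without 1 pool. IUGR F1 against control (0) gave 1 with probe sets averaged and 2 with array weights, and ON F2 against control (0) gave 0 to 1 without 1 pool. The F test (34) gave 53 with array weights, 52 with centring and 8 with Dbp.

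Sign changes were these. For Nr1i2, IUGR F1 against control became 0.00079 with probe sets averaged, 0.028 on its other probe set, 0.014 with array weights and 0.084 without pools 5, 8 and 13; ON F1 against control became -0.024, -0.050 (other probe set), -0.055 (centring) and -0.020 (Dbp); IUGR F1 against ON F1 became 0.025, 0.078 (other probe set) and 0.0079 (centring). For Nr1i3, ON F1 against control became 0.032 with Dbp, 0.010 with the ratio and 0.068 without pools 5, 8 and 13, where IUGR F1 against control became 0.11 and IUGR F1 against ON F1 0.041; the last became 0.019 with array weights and 0.030 with centring, and IUGR F2 against IUGR F1 0.020 with centring, 0.033 with Dbp and 0.016 with the ratio. Cyp2c37 in ON F1 against control became -0.00014 with centring. Cyp2b10 in IUGR F2 against IUGR F1 became -0.023 with Dbp and -0.16 without pools 5, 8 and 13, and Abcc3 in IUGR F2 against ON F2 -0.00072 without them.

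Leaving out 1 pool gave ranges across 0 for Nr1i3 in IUGR F1 (-0.23 to 0.11), ON F1 (-0.22 to 0.072), IUGR F2 (-0.25 to 0.044) and ON F2 (-0.29 to 0.0021) against control, IUGR F2 against IUGR F1 (-0.18 to 0.13), ON F2 against ON F1 (-0.18 to 0.050), IUGR F1 against ON F1 (-0.16 to 0.15) and IUGR F2 against ON F2 (-0.045 to 0.11). It did so for Nr1i2 in IUGR F1 (-0.098 to 0.084) and ON F1 (-0.11 to 0.14) against control, IUGR F1 against ON F1 (-0.17 to 0.082) and IUGR F2 against ON F2 (-0.16 to 0.028). Cyp2c37 gave -0.13 to 0.15 in ON F1 and -0.30 to 0.023 in IUGR F2 against control, and -0.11 to 0.21 between the IUGR generations. Cyp2b10 gave -0.0095 to 0.70 in IUGR F1 against control and -0.18 to 0.36 between the IUGR generations. In IUGR F2 against ON F2 Cyp2c38 gave -0.27 to 0.063 and Abcc3 -0.00072 to 0.41.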
